A study of Mus musculus with 6 samples.

Results

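The genes described here are the globin genes and 3 red cell genes measured in mouse hearts at E12.5, at mid-gestation. They were chosen by gene symbol, and all 10 had a row among the 30619 rows of the raw count table, which writes points for hyphens (Hbb.y, Hbb.bh1, Hba.x, Hbb.bs, Hbb.bt, Hba.a1 and Hba.a2). Poly(A) RNA of mixed cardiac cells was sequenced from 3 libraries titled CKO, a conditional knockout of Trim28, and from 3 libraries titled CTR, whose genotype label is WT. The genotype label of the CKO libraries reads TRIM28 knockdown, and the titles were followed. The sources used here name no Cre driver, strain or number of hearts per library. No label says that replicates are separate animals, so a p-value here reflects only the spread among these 6 libraries.

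Libraries held 34400841 to 39763233 counts. CPM below are counts scaled to library size with TMM factors, which correct for differences in RNA composition, and log2 fold changes are CKO over control. Trim28, which encodes a co-repressor of transcription, had 172, 314 and 165 CPM in CKO replicates 1, 2 and 3, against 305, 391 and 443 CPM in control replicates 1, 2 and 3 (log2 fold change -0.81, SE 0.34, adjusted p = 0.34, edgeR). The library labelled CKO 2 lay within the control range, so this gene does not bear out its label. Counts over a whole gene include exons that a deletion leaves in place. Markers of heart muscle were at 28844 to 30641 CPM summed over 10 genes in CKO and at 27507 to 29544 CPM in control libraries. The liver genes Alb and Afp, which fetal liver makes in quantity, had at most 11 counts in any library.

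Red cells of the early mouse embryo come in successive waves. Primitive erythroblasts from the yolk sac circulate with nuclei and make embryonic globins, and definitive cells from the fetal liver make adult globins. RNA of mixed cells does not show which cells made a transcript. The embryonic share given below is therefore no measure of primitive against definitive cells. Haemoglobin joins alpha-type and beta-type chains, so the alpha and the beta gene clusters must be expressed in balance. In heart tissue such transcripts are usually those of blood held in the chambers and vessels. In such bulk RNA, fewer red cells and less globin RNA per red cell cannot be told apart.

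The beta-type genes lie on the minus strand of chromosome 7 on the mm10 build, in an order that runs from the embryonic to the adult end. They are Hbb-y (103851749 to 103853216), Hbb-bh1 (103841637 to 103843164), Hbb-bs (103826534 to 103828096) and Hbb-bt (103812524 to 103813996). The alpha-type genes lie on the plus strand of chromosome 11, namely Hba-x (32276400 to 32278116), Hba-a1 (32283511 to 32284465) and Hba-a2 (32296489 to 32297298). Klf1 lies on chromosome 8 (84901928 to 84905291, plus strand). Gata1 (7959260 to 7978071, minus strand) and Alas2 (150547375 to 150570638, plus strand) lie on the X chromosome. Alas2 overlaps Apex2 on the other strand, so reads of the pair cannot be told apart where the counting ignored strand.

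Promoters of 6 members are shown, which cover embryonic and adult genes of both clusters and the red cell genes Klf1 and Alas2. Klf1 encodes a factor that binds CACCC boxes. RefSeq gave a promoter window for 9 of the 10 members, on the GRCm38.p6 assembly. Each line is the 200 bases just before the annotated start, 5′ to 3′ on the gene's strand, and RefSeq starts can differ from the gene bounds given above, which are those of GENCODE. Capitals mark CACCC, the core of the box bound by KLF1, GATAA, the core bound by GATA factors, CCAAT and TATAA, on either strand, with overlapping matches joined. The windows are chr7:103853208-103853407 for Hbb-y, chr11:32276400-32276599 for Hba-x, chr7:103827929-103828128 for Hbb-bs, chr11:32283472-32283671 for Hba-a1, chr8:84901782-84901981 for Klf1 and chrX:150547217-150547416 for Alas2.
Hbb-y: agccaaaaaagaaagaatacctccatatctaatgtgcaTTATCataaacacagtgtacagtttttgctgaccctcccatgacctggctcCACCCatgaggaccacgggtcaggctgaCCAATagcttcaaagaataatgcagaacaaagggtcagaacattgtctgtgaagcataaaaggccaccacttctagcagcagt
Hba-x: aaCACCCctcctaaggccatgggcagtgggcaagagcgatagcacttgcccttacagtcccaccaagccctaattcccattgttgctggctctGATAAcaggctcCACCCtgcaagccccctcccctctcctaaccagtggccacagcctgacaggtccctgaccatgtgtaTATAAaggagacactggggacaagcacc
Hbb-bs: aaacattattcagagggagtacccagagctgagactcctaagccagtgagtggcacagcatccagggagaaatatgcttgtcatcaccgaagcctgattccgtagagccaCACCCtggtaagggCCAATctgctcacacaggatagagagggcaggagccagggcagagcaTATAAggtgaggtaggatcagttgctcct
Hba-a1: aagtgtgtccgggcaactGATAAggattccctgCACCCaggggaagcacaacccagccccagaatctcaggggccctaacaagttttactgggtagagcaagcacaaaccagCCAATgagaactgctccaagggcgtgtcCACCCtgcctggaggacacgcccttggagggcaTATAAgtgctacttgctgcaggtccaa
Klf1: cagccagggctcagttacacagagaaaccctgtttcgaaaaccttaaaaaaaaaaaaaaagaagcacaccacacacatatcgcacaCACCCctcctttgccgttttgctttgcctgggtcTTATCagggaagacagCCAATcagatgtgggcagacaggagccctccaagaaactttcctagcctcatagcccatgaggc
Alas2: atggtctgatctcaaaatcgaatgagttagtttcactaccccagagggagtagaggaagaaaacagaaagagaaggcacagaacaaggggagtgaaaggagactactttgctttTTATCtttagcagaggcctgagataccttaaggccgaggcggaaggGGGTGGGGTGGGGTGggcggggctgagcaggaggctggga

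CACCC stood in all 9 windows, against 45.5% of the 32851 RefSeq promoter windows of this length. GATAA stood in 6 of 9, against 18.1% of all windows, CCAAT in 6 of 9, against 29.3%, and TATAA in 5 of 9, against 18.5%. In Hbb-bs, CACCC began 90 bases before the start, inside the longer box CCACACCC, which 2.72% of all windows hold. The match nearest the start began 111 bases before it in Hbb-y, 95 bases in Hba-x and 60 bases in Hba-a1. Alas2 held 3 matches in tandem, all on the other strand. These matches describe the letters and are not shown to be bound.

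The adult genes come as pairs of near-identical copies. The coding sequences of Hba-a1 and Hba-a2 differed at 1 of 429 bases, and those of Hbb-bs and Hbb-bt at 1 of 444 bases. By comparison, Hbb-y was 74.3% identical to Hbb-bs, and Hba-x was 62% identical to Hba-a1. Of all stretches of 100 bases in the main Hba-a2 transcript, 74.5% also occur in Hba-a1, and 62.6% of those in Hbb-bs occur in Hbb-bt. The Hba-a1 and Hba-a2 windows share an unbroken stretch of 197 bases. The sources used here do not say how reads shared by such copies were counted, so the split within each pair is uncertain, and so is the level of adult relative to embryonic globins.

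Globin levels per length followed the same leading order in every library, with Hbb-y at the top, then Hba-a1, then Hba-x. In CPM per kb of exons, Hbb-y, the embryonic epsilon-type beta gene, averaged 1121 ± 64.0 in CKO and 1579 ± 450.1 in control hearts (SD, n = 3 each, as below). Hba-a1, an adult alpha gene, averaged 271 ± 32.0 in CKO and 379 ± 97.9 in controls. Hba-x, the embryonic zeta-type alpha gene, averaged 165 ± 24.8 in CKO and 194 ± 41.4 in controls. Hbb-bs, an adult beta gene, averaged 63.3 ± 18.1 in CKO and 96.0 ± 35.2 in controls, and it came next in every library but the library labelled CKO 2, where Hbb-bh1 was above it (54.3 against 43.9 CPM per kb).

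The other globins were lower. Hbb-bh1, the second embryonic beta-type gene, averaged 41.0 ± 11.7 CPM per kb in CKO and 42.8 ± 12.7 in controls. Hbb-bt averaged 35.5 ± 6.58 in CKO and 52.2 ± 15.0 in controls, and Hba-a2 29.7 ± 6.60 in CKO and 39.8 ± 15.0 in controls. Hbb-bt was above Hba-a2 in all 6 libraries. Hbb-bh1 lay below Hbb-bt in every library but the library labelled CKO 2 (54.3 against 28.4 CPM per kb). With Hba-a2 it changed places from library to library. Alas2, which encodes the erythroid form of the first enzyme of heme synthesis, averaged 4.75 ± 0.876 in CKO and 7.10 ± 2.33 in controls. The transcription factor genes Klf1 and Gata1 were near 1 CPM per kb or below in every library, so that their values rest on 20 to 65 counts.

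**Figure D1:**
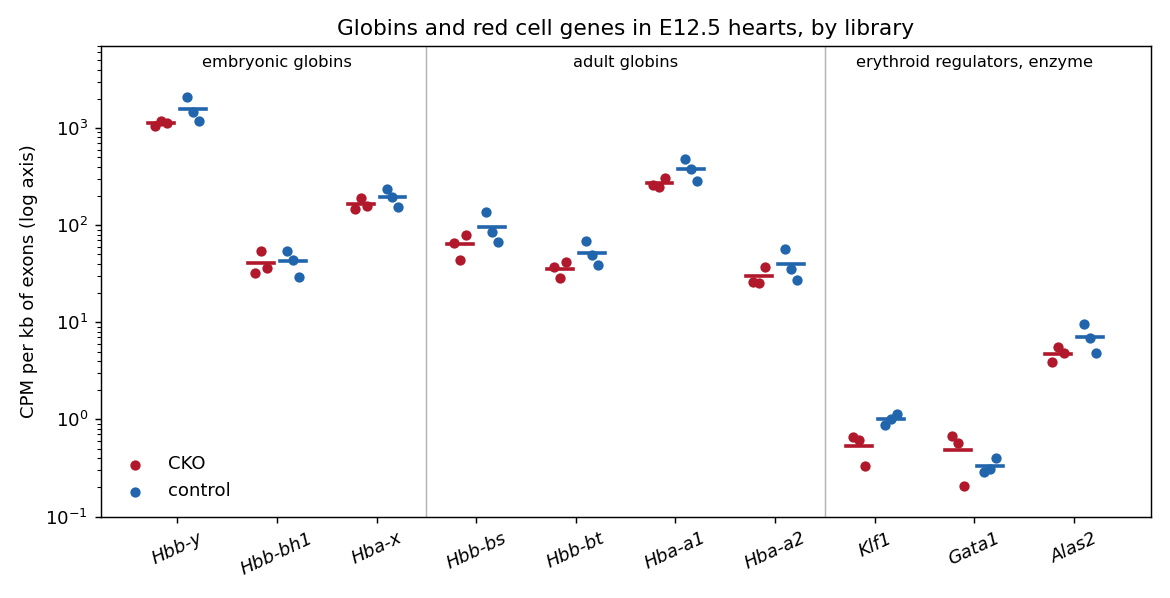
CPM per kb of exons on a log axis for the 10 genes, with a point per library (CKO in red, left, control in blue, right) and a bar at the group mean. Hbb-y is highest in both groups, and the Klf1 points of the 3 CKO libraries lie below those of the 3 controls.

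None of the 10 members was called different between CKO and control hearts. The test was edgeR's quasi-likelihood test across 17557 genes, two-sided, with Benjamini-Hochberg adjustment and a threshold of 0.05, under which 4.1% of all tested genes were called, 3.03% higher and 1.07% lower in CKO. All 10 members passed the filter on low counts. Of the 10, 9 had a log2 fold change below 0, as had 49.2% of all tested genes. The median was -0.49 over the members and 0.00 over all tested genes. At an unadjusted p under 0.05 there was 1 member, Klf1, against 17.8% of all tested genes. DESeq2 and limma-voom also called none of the members. Over all 17557 genes, DESeq2 called 747 higher and 321 lower, and limma-voom 495 higher and 182 lower. By DESeq2 and limma-voom, 4 and 6 members had an unadjusted p under 0.05. The share of all tested genes at that cut was not taken for these tools, so their counts have no background here. The CKO values lay wholly below the control values in 2 members, Hbb-y and Klf1, and groups did not overlap in 22.1% of all tested genes and in 10.6% with CKO lower.

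Among embryonic globins, Hbb-y had 666, 745 and 719 CPM in CKO replicates 1, 2 and 3, against 1311, 935 and 753 CPM in control replicates 1, 2 and 3. The CKO libraries lay close together and below every control, and control replicate 1 was highest. The log2 fold change was -0.49 (SE 0.24, 95% interval -1.14 to 0.15, adjusted p = 0.40, edgeR). Hba-x had 136, 181 and 147 CPM in CKO, against 221, 183 and 143 CPM in controls. The groups overlapped, with a log2 fold change of -0.24 (SE 0.21, interval -0.81 to 0.33). Hbb-bh1 had 19.7, 33.3 and 22.4 CPM in CKO, against 33.5, 27.1 and 18.1 CPM in controls. Its groups spanned much the same range (log2 fold change -0.07, SE 0.33, interval -0.96 to 0.82).

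Adult globins had log2 fold changes from -0.60 to -0.42. Hba-a1 had 208, 202 and 250 CPM in CKO, against 389, 305 and 230 CPM in controls. CKO replicate 3 lay above control replicate 3, so the groups overlapped (log2 fold change -0.48, SE 0.23, interval -1.12 to 0.15, adjusted p = 0.40, edgeR). Hbb-bs had 50.9, 33.7 and 61.2 CPM in CKO, against 104, 65.1 and 52.1 CPM in controls. The library labelled CKO 2 was lowest and control replicate 1 highest (log2 fold change -0.60, SE 0.38, interval -1.64 to 0.45). Hbb-bt had 25.9, 19.9 and 29.1 CPM in CKO, against 48.3, 34.3 and 27.6 CPM in controls. Its libraries ranked as those of Hbb-bs did at both ends, and the groups overlapped (log2 fold change -0.56, SE 0.27). Hba-a2 had 17.5, 17.0 and 24.9 CPM in CKO, against 37.6, 23.8 and 18.2 CPM in controls. CKO replicate 3 lay above the other CKO libraries and above both control replicates 2 and 3 (log2 fold change -0.42, SE 0.35). With each pair of copies summed before the fit, the log2 fold change was -0.48 for Hba-a1 with Hba-a2 (adjusted p = 0.42, edgeR) and -0.59 for Hbb-bs with Hbb-bt (adjusted p = 0.49).

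**Figure D2:**
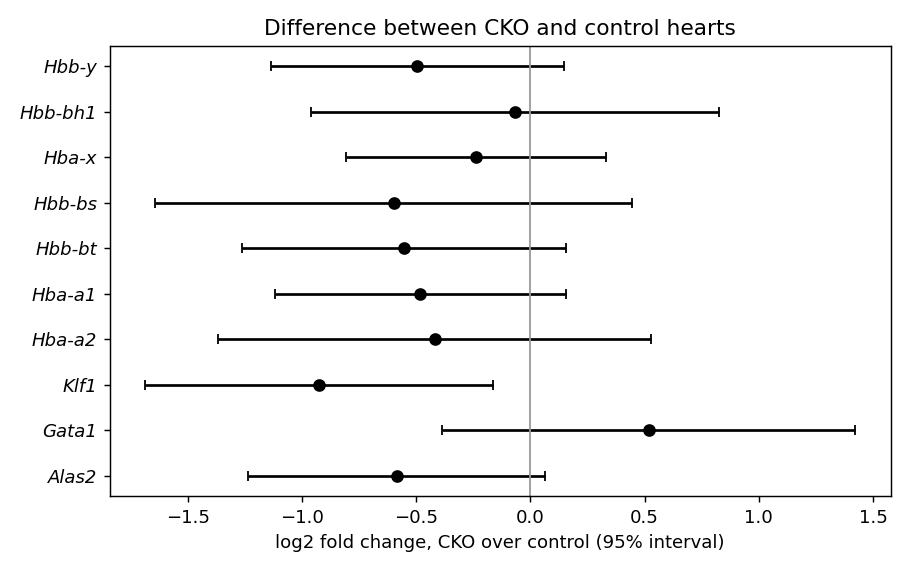
Log2 fold change, CKO over control, of the 10 genes from edgeR (points) with unadjusted 95% intervals (bars). The point of Gata1 lies above 0 and the other 9 lie below, and the interval of Klf1 alone leaves out 0 (-1.69 to -0.16).

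Control replicate 1 carried much of the difference. Without it, the log2 fold change was -0.25 for Hbb-y, -0.28 for Hba-a1, -0.27 for Hbb-bs, -0.31 for Hbb-bt, -0.08 for Hba-a2, -0.08 for Hba-x and -0.32 for Alas2, and Hbb-bh1 turned to 0.15. Without the library labelled CKO 2, Hbb-bs was at -0.40 and Hbb-bh1 at -0.32, and again no member was called.

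The regulators did not follow one pattern. Klf1, the factor that activates adult beta-globin, heme and red cell membrane genes, had 1.02, 0.929 and 0.505 CPM in CKO, against 1.35, 1.53 and 1.73 CPM in controls. Every CKO library lay below every control, with CKO replicate 3 lowest and control replicate 3, not 1, highest. The log2 fold change was -0.93 (SE 0.36, unadjusted p = 0.0197, adjusted p = 0.17, edgeR), and it ranged from -1.13 to -0.65 without each library in turn. These values rest on 37, 32 and 20 counts in CKO and 54, 59 and 65 counts in controls.

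Gata1, the master factor of red cells that megakaryocytes, the source of platelets, also express, had 1.65, 1.39 and 0.505 CPM in CKO, against 0.702, 0.753 and 0.987 CPM in controls. CKO replicate 1 and the library labelled CKO 2 lay above all controls and CKO replicate 3 below them (log2 fold change 0.52, SE 0.43, interval -0.39 to 1.42, adjusted p = 0.60, edgeR). The 11 platelet and megakaryocyte genes summed to 80.4, 77.3 and 50.1 CPM in CKO, against 44.6, 53.2 and 45.1 CPM in controls. CKO replicate 1 and the library labelled CKO 2 were highest in both Gata1 and this sum. The other libraries did not rank alike. CKO replicate 3, lowest in Gata1, lay above control replicates 1 and 3 in the sum. Control replicate 3, highest of the controls in Gata1, was next to lowest in the sum. The part of these genes in the Gata1 values was not tested. Alas2 had 9.26, 13.5 and 11.5 CPM in CKO, against 22.9, 16.6 and 11.7 CPM in controls. Control replicate 1 was highest, and the groups overlapped (log2 fold change -0.59, SE 0.27, interval -1.24 to 0.06, adjusted p = 0.33, edgeR). Gata1 and Alas2 are X-linked, and Xist, which marks an inactive X, had 15232, 7 and 4 counts in CKO and 24633, 36330 and 17569 counts in controls. Ddx3y, on the Y chromosome, was read 1382, 2597 and 2626 times in CKO replicates 1, 2 and 3. In control replicates 1, 2 and 3 it was read 1153, 0 and 1604 times. CKO replicate 1 and control replicates 1 and 3 thus held both transcripts. CKO replicates 2 and 3 held almost no Xist, and control replicate 2 held no Ddx3y. Sex make-up was therefore not matched between the groups, and its part in the values of Gata1 and Alas2 was not tested.

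**Figure D3:**
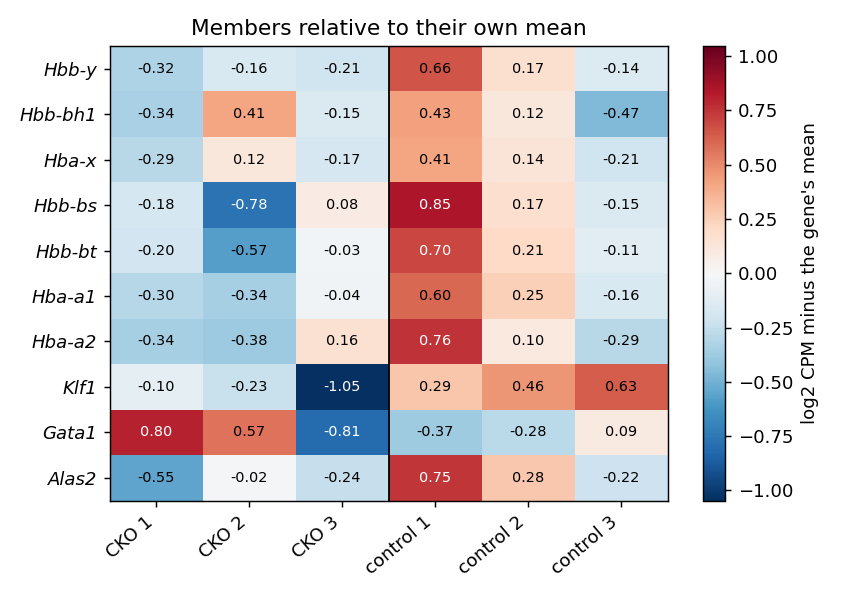
Log2 CPM of each gene (rows) in each library (columns, CKO left of the line, control right of it), minus the gene's mean over the 6 libraries. Control 1 is above the mean for all 7 globins and Alas2 (0.41 to 0.85), whereas Klf1 peaks in control 3 (0.63) and Gata1 in CKO 1 (0.80).

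The amount of globin RNA was small. The 7 globins took 0.110%, 0.123% and 0.125% of all counts in CKO replicates 1, 2 and 3, against 0.215%, 0.158% and 0.126% in control replicates 1, 2 and 3. Exact 95% binomial intervals, which cover counting error only, ran from 0.109% to 0.111% in the lowest library, CKO 1, and from 0.214% to 0.217% in the highest, control 1. The means were 0.119 ± 0.00813% in CKO and 0.166 ± 0.0452% in controls (SD, n = 3 each). The 3 CKO libraries lay below the controls, but CKO replicate 3 and control replicate 3 were nearly level. The mean difference of -0.0470 percentage points was -0.0225 without control replicate 1. As a sum over the chosen members it was given no test.

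The embryonic part of that globin RNA overlapped between the groups. Embryonic genes gave 76.1%, 80.4% and 74.0% of the summed globin level per kb in CKO replicates 1, 2 and 3, against 76.2%, 75.9% and 76.7% in control replicates 1, 2 and 3. The control libraries stayed within 1 percentage point of each other although their globin amounts differed more than those of CKO, and the CKO libraries lay on both sides of them. The means were 76.8 ± 3.26% in CKO and 76.2 ± 0.396% in controls (SD, n = 3 each). The difference of 0.594 percentage points turned to -1.19 without the library labelled CKO 2. Within each chain type the groups overlapped as well. Embryonic genes gave 91.3%, 94.5% and 90.6% of the beta-type level in CKO, against 91.2%, 91.9% and 91.9% in controls. Hba-x gave 33.9%, 41.2% and 31.2% of the alpha-type level in CKO, against 30.6%, 32.1% and 33.0% in controls.

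The library labelled CKO 2 thus stood apart in both clusters, with the highest embryonic share of each. Its level per length of Hbb-y was 26.8 times that of Hbb-bs, against 15.9 and 14.2 times in CKO replicates 1 and 3 and 15.3, 17.4 and 17.5 times in controls. Alpha-type genes gave 26.5%, 26.4% and 28.0% of the globin level in CKO, against 24.8%, 26.8% and 25.9% in controls, so CKO and control libraries overlapped. How reads shared by near-identical copies were counted is not known, so the alpha-type share is uncertain and is no measure of chain balance. The copies within a pair kept a similar split in all libraries. Hba-a1 had 10.05 to 11.9 times the counts of Hba-a2 in CKO and 10.3 to 12.8 times in controls. Hbb-bs had 1.69 to 2.11 times the counts of Hbb-bt in CKO and 1.89 to 2.16 times in controls.

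**Figure D4:**
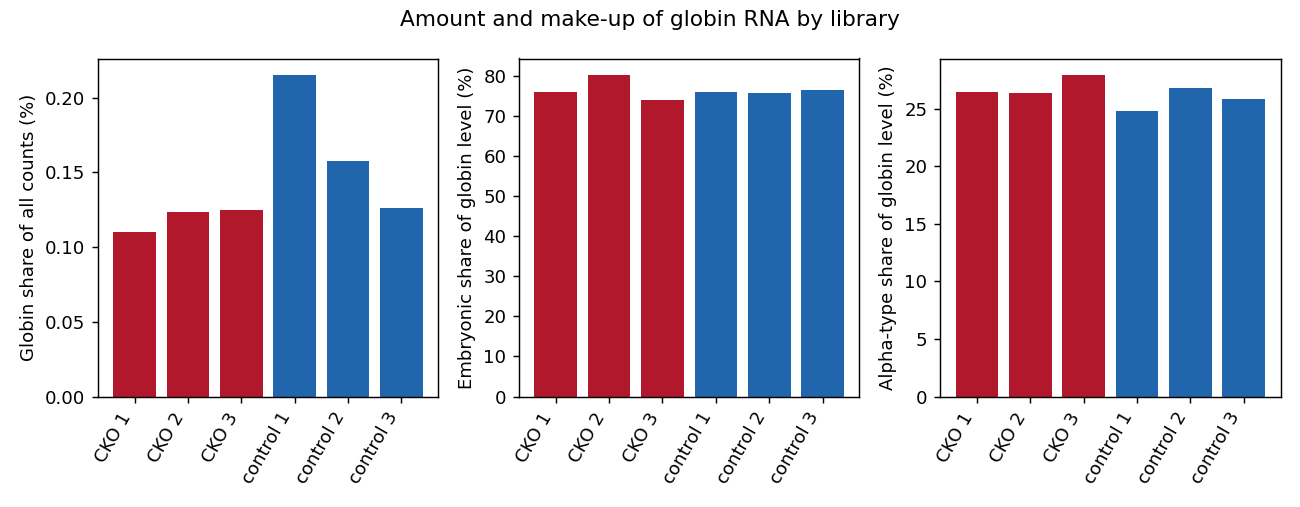
For each library (CKO in red, left, control in blue, right), the share of all counts taken by the 7 globins, and the embryonic and alpha-type shares of the summed globin level per kb, in percent. Globin amount ranges from 0.110% to 0.215%, while the embryonic share stays at 74.0% to 80.4%.

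A ribosomal RNA row, CT010467.1, moved with the groups. It took 0.790%, 0.672% and 0.563% of the counts in CKO and 0.522%, 0.222% and 0.126% in controls. In controls the library with more of this RNA also held more globin, and in CKO the order was the reverse. With its log2 share as a covariate, an alternative chosen after seeing the data, 2 members were called by edgeR, both lower, where 0.319% of all tested genes were called in either direction. They were Hbb-y, with a log2 fold change of -0.97 (adjusted p = 0.000321), and Alas2, with one of -1.13 (adjusted p = 0.0235). Because each CKO library had a higher share than each control, the share and the group cannot be told apart. Members were also called under 3 other settings. The non-robust edgeR fit called Hbb-y (adjusted p = 0.0444) and Hba-a1 (adjusted p = 0.0488), where 4.32% of all genes were called. Alas2 was called with no filter on low counts (adjusted p = 0.00019), where 4.09% of genes were called, and without control replicate 3 (adjusted p = 0.0250), where 1.65% were.

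Minor globin genes were scarce. Hbb-bh2 and the theta gene Hbq1a had at most 8 and 4 counts in a library and were not tested. The theta gene Hbq1b had 0.165, 0.668 and 0.480 CPM in CKO, against 0.351, 0.285 and 0.107 CPM in controls (log2 fold change 0.79, SE 0.66, adjusted p = 0.60, edgeR).

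Among erythroid transcription factors, 2 fell in CKO, both also active in other cell types. Of 16 tested, including Klf1 and Gata1, 2 were called lower and none higher, against 1.07% and 3.03% of all tested genes by edgeR. Limma-voom gave the same 2, and DESeq2 also Tal1. Of the 16, 14 had a log2 fold change below 0, against 49.2% of all tested genes, and the median was -0.17. Cbfa2t3, a co-repressor that works with TAL1, had 22.4, 26.4 and 20.9 CPM in CKO, against 29.9, 30.0 and 30.6 CPM in controls (log2 fold change -0.38, SE 0.09, adjusted p = 0.0212, edgeR). Gata2, a factor of blood progenitors and endothelium, had 19.8, 16.8 and 17.7 CPM in CKO, against 22.9, 23.0 and 22.9 CPM in controls (log2 fold change -0.34, SE 0.09, adjusted p = 0.0433, edgeR). With a library left out, each kept its call in only 1 of 6 fits (adjusted p up to 0.151 for Cbfa2t3 and 0.174 for Gata2). Tal1, a factor of both blood and endothelium, had a log2 fold change of -0.32 and did not pass (adjusted p = 0.0614). The 8 endothelial markers summed to 1060, 1212 and 1031 CPM in CKO, against 1240, 1290.0 and 1290.1 CPM in controls, with 3 called lower and none higher by edgeR. These were the cadherin gene Cdh5 (-0.30, adjusted p = 0.00838) and the receptor genes Kdr (-0.26, adjusted p = 0.0460) and Tek (-0.36, adjusted p = 0.00195), which kept their calls in 3, 1 and 6 of 6 fits with a library left out. Their part in the values of these factors was not tested.

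Among regulators of the switch between globins, none of 22 tested was called by edgeR, with 5 at an unadjusted p under 0.05. Of all tested genes, edgeR called 4.1%, and 17.8% had an unadjusted p under 0.05. DESeq2 called 1, Bcl11a, and limma-voom 1, Trim28, the targeted gene. In all, 18 of the 22 had a log2 fold change below 0, against 49.2% of all tested genes, and the median was -0.07. Bcl11a, which represses embryonic globin genes in mouse definitive cells, had 23.2, 27.1 and 24.0 CPM in CKO, against 29.5, 30.3 and 31.0 CPM in controls. The groups did not overlap, and the change did not pass (log2 fold change -0.29, SE 0.08, adjusted p = 0.0596, edgeR). The DNA methyltransferase gene Dnmt1 was at -0.14 (adjusted p = 0.136), the nuclear receptor gene Nr2c2 at -0.17 (adjusted p = 0.19) and Klf1, also on this list, is described with the members.

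Genes of heme synthesis and iron supply, which all cells use to some degree, held no call by edgeR, DESeq2 or limma-voom. Of all tested genes, edgeR called 4.1%, and 17.8% had an unadjusted p under 0.05. Of 13 heme genes, 1 had an unadjusted p under 0.05 by edgeR, and 5 were below and 8 above 0 on the log2 scale, with a median of 0.02. Besides Alas2, the smallest adjusted p-values were those of Urod (-0.18, adjusted p = 0.183), Alas1, the form of the first enzyme used outside red cells (0.12, adjusted p = 0.349), and Ppox (0.19, adjusted p = 0.389). Of 11 genes of iron uptake and storage, 5 had an unadjusted p under 0.05 by edgeR. In this list 9 were above 0, whereas 49.2% of all tested genes were below 0, and the median was 0.17. The ferrireductase gene Steap3 was at 0.29 (adjusted p = 0.106), Hfe at 0.35 (adjusted p = 0.109), the mitochondrial iron importer gene Slc25a37 at 0.22 (adjusted p = 0.192) and the ferritin gene Ftl1 at 0.17 (adjusted p = 0.228).

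Of 19 tested genes of the red cell membrane and its skeleton, 2 were called higher and none lower. By edgeR, 3.03% of all tested genes were called higher and 1.07% lower. The called genes of this list are given next. They were Cd44, an adhesion receptor found on many cell types, at 0.41 on the log2 scale (SE 0.07, adjusted p = 0.00189, edgeR), and the beta-spectrin gene Sptb, which muscle also expresses, at 0.29 (SE 0.06, adjusted p = 0.015). With a library left out, Cd44 kept its call in 6 of 6 fits and Sptb in 3. In this list 11 genes were below 0, against 49.2% of all tested genes, and the median was -0.06. The glycophorin gene Gypc was at -0.10 (adjusted p = 0.481). Slc4a1, which encodes the band 3 anion exchanger and was chosen after its values were seen, had 23.7, 36.3 and 31.7 CPM in CKO, against 44.5, 33.8 and 30.4 CPM in controls. Control replicate 1 was highest, as in the globins (log2 fold change -0.25, SE 0.21, adjusted p = 0.64).

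Of 16 other erythroid genes tested, none was called by edgeR or limma-voom and 2 by DESeq2 (Spire1 and Tal1). By edgeR 2 had an unadjusted p under 0.05, against 17.8% of all tested genes, and the median was -0.03. Spire1, an actin nucleator gene, was at 0.36 (adjusted p = 0.0652), Mgst3 at 0.20 (adjusted p = 0.282) and the carbonic anhydrase gene Car2 at -0.33 (adjusted p = 0.378). Of 11 genes of the erythropoietin pathway, which drives the survival of red cell precursors, none was called by edgeR, DESeq2 or limma-voom. By edgeR 4 had an unadjusted p under 0.05, against the same 17.8% of all tested genes, and the median was -0.07. Stat5a was at -0.41 (adjusted p = 0.118), Jak2 at -0.20 (adjusted p = 0.141), Erfe, an erythroid hormone gene, at 0.67 (adjusted p = 0.172) and Socs3 at -0.28 (adjusted p = 0.254).

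Markers of other blood lineages were read as a check on what the hearts held. Of 10 platelet and megakaryocyte genes tested, 1 was called higher and none lower, against 3.03% and 1.07% of all tested genes by edgeR. All 10 had a log2 fold change above 0, whereas 49.2% of all tested genes were below 0, and the median was 0.48. Plek, which encodes pleckstrin of platelets and leukocytes, had 15.2, 14.4 and 11.4 CPM in CKO, against 7.12, 8.49 and 7.63 CPM in controls (log2 fold change 0.82, SE 0.14, adjusted p = 0.00155, edgeR), and kept its call with any 1 library left out. The chemokine gene Ppbp (0.92, adjusted p = 0.0559) and the glycoprotein genes Gp9 (0.91, adjusted p = 0.0898) and Gp6 (1.49, adjusted p = 0.104) did not pass by edgeR, and DESeq2 called Ppbp as well as Plek. Of 6 leukocyte genes tested, Laptm5 alone was called, higher (0.45, SE 0.11, adjusted p = 0.0257, edgeR), and kept its call in 2 of 6 such fits. Of 5 tested genes of macrophages and heme recycling, none was called by edgeR, DESeq2 or limma-voom. By edgeR 1 had an unadjusted p under 0.05, against 17.8% of all tested genes. Csf1r, a receptor gene of macrophages, was at 0.29 (adjusted p = 0.0797). Hmox1, the heme oxygenase gene, had 79.9, 20.9 and 27.7 CPM in CKO, against 15.2, 18.3 and 17.3 CPM in controls. CKO replicate 1 was far above the rest (log2 fold change 1.34, SE 0.64, adjusted p = 0.40).

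Of 4 tested liver genes none was called by edgeR, DESeq2 or limma-voom, and none had an unadjusted p under 0.05 by edgeR. Of all tested genes, edgeR called 3.03% higher and 1.07% lower, and 17.8% had an unadjusted p under 0.05. Of 6 tested yolk sac genes 2 were called higher, Rbp4 (1.70, adjusted p = 0.0278) and the widely expressed protease gene Ctsl (0.28, adjusted p = 0.00571, edgeR). With a library left out, Rbp4 kept its call in 1 of 6 fits and Ctsl in 5. Of 10 heart muscle genes, 2 were called by edgeR, both higher, the myosin genes Myh6 (0.33, adjusted p = 0.0102) and Myl7 (0.53, adjusted p = 0.00514), and they kept their calls in 2 and 6 of 6 fits with a library left out. DESeq2 called 4, these and Tnni3 and Myh7, of which Myh7 was lower (-0.23 by edgeR, adjusted p = 0.138). With the ribosomal RNA covariate, Myh6 and Myl7 kept their calls (edgeR adjusted p = 0.00614 and 0.0477). The other list genes named as called by edgeR lost theirs, with adjusted p-values of 0.425 for Cdh5, 0.548 for Kdr, 0.255 for Tek, 0.437 for Cbfa2t3, 0.470 for Gata2, 0.285 for Cd44, 0.271 for Sptb, 0.218 for Plek, 0.526 for Laptm5, 0.563 for Rbp4 and 0.292 for Ctsl.

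**Figure D5:**
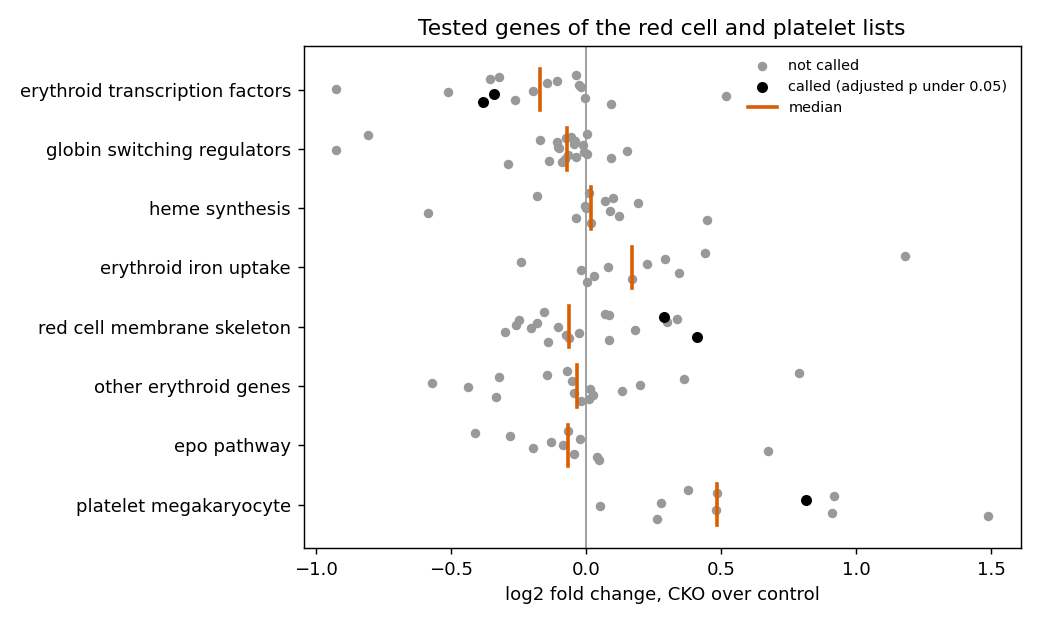
Log2 fold changes, CKO over control, of the tested genes of 8 lists, with called genes in black, other genes in grey and list medians in orange. Medians lie near 0 for the heme (0.02) and other erythroid genes (-0.03), at -0.17 for erythroid transcription factors and at 0.48 for platelet genes.

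The genes whose profile across the 6 libraries lay nearest to the mean profile of the 4 adult globins were sought among 13040 other genes. Likeness was the root mean square distance of log2 CPM after each gene's mean was taken off. The adult globins themselves, which make up that mean, lay at 0.06 to 0.12. Hbb-y lay at 0.18, Alas2 at 0.27, Hba-x at 0.31, Hbb-bh1 at 0.43, Klf1 at 0.61 and Gata1 at 0.87. The nearest other genes were Minar2 (0.13), Gm10925 (0.15), the prostaglandin dehydrogenase gene Hpgd (0.17), the microfibril gene Mfap5 (0.19), Epb41l4a (0.19), the poly(A) polymerase gene Tent5c (0.19), Gpr135 (0.19) and the muscarinic receptor gene Chrm3 (0.19). None of these 8 was called (edgeR adjusted p from 0.114 to 0.583). They were picked for this likeness, so their fold changes follow in part from the choice. None of them stood on a red cell list.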

How the data were processed

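The authors deposited raw read counts per gene symbol, per the labels, for 6 libraries of E12.5 hearts (500 ng of total RNA each, NEBNext Ultra kit, Illumina HiSeq, per the labels' protocols). Per the submitters' processing notes, the mm10 build was used. The sources used here give no aligner, counter or strand setting. Altered symbols were restored, and exon lengths and positions taken, from GENCODE M21. Genes were tested with edgeR 4.0.16 in R 4.3.3: filterByExpr (minimum count 10), TMM factors, robust dispersions, glmQLFit with robust set and legacy off, group as the only term, and Benjamini-Hochberg adjustment over 17557 genes. SE is the log2 fold change over the square root of F, and intervals use the same degrees of freedom. Alternatives used limma 3.58.1, DESeq2 1.42.0, other scalings and filters, and single libraries left out. The fit was also run on simulated data, and no result above rests on that run.

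The members and lists were chosen with earlier results of these data known. Genes that could be named were the members, Trim28, called list genes, up to 4 genes with the smallest adjusted p of each list and the 8 genes nearest the adult globin profile above a mean log2 CPM of 1. A gene that this rule names is not reported here. Coding sequences were read as the longest open reading frame of each first-listed GENCODE transcript. Between libraries of a group, counts differed by 10.0 to 19.1 times the sampling noise (chi-square per degree of freedom), so no library was a copy of another.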

Additional observations from a re-analysis of the deposited data

How the results depend on the processing

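No member was called by RLE, upper-quartile or no scaling factors, with globin rows left out of library sizes, by DESeq2 or limma-voom, with a filter of 1 CPM in 3 libraries, or with copies summed. In number, 2 members were called by the non-robust fit and 2 with the ribosomal RNA covariate, and 1 with no filter; leaving out each library in turn gave 0 to 1 called. At an unadjusted p under 0.05 there were 4 members by DESeq2, 6 by limma-voom and 6 by the non-robust fit. The shares of all tested genes at that cut were not taken for these settings, so the counts cannot be weighed. With the replicate block, 0 members were called and Klf1 had an adjusted p of 0.219; the block changed no call of a member, took Gata2 to an adjusted p of 0.0610 and Ppbp to 0.0436, gave 518 genes higher and 158 lower against 532 and 188, and same-numbered libraries did not deviate together (correlations -0.00 to 0.02). Hbb-bh1 ranged from -0.32 to 0.15 on the log2 scale when single libraries were left out, at 0.07 without CKO replicate 1, 0.01 without CKO replicate 3 and 0.15 without control replicate 1. Of 168 planned log2 fold changes of members, 161 kept their direction and side of the threshold, 4 passed it and these 3 turned. Left-out libraries gave -1.19 to 2.01 percentage points for the embryonic share, -0.0671 to -0.0225 for the globin share and 0.592 to 1.58 for the alpha share. Depth limits Klf1 and Gata1, at 20 to 65 counts. How shared reads were counted limits all adult globins.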
